A study of Homo sapiens with 6 samples.

Results

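The expressed ZNF zinc finger genes are the protein-coding genes whose symbol is ZNF followed by a number and whose level averaged at least 2 FPKM over 6 RNA-seq libraries of K562 cells. FPKM, fragments per kilobase of transcript and unit of sequencing output, is a level scaled to transcript length and library size. This rule found 251 of the 512 protein-coding ZNF genes, among 46427 genes in all. The level itself chose the members, so a gene that is low in one group could enter through the other: 221 members averaged at least 2 FPKM in both groups, 28 only in HR-19011 libraries and 2 only in vehicle libraries. Just inside the limit were ZNF148, ZNF766 and ZNF736, at means of 2.03, 2.06 and 2.07 FPKM over the 6 libraries, and just outside were ZNF304, ZNF8 and ZNF846, at 1.96, 1.99 and 1.99 FPKM.

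K562 is a human erythroleukemia line derived from chronic myeloid leukemia, labelled wild type here and grown in RPMI-1640 medium with fetal bovine serum. The cells of 3 libraries received 10 µM HR-19011 for 24 h, and those of the 3 libraries set against them received 0.1% DMSO as vehicle for 24 h. HR-19011 is the code name of a compound, which the series title links to the integrated stress response through HRI, eIF2α and ATF4. How much DMSO the HR-19011 cells received is not in the labels. Nor do the labels tell whether the libraries of a group stem from separate cultures, and the spread behind the p-values may therefore be technical only.

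A C2H2 zinc finger is a short fold held by a zinc ion between cysteines and histidines, and proteins with long arrays of such fingers bind particular DNA sequences. Many ZNF proteins also carry a KRAB box, which binds the co-repressor TRIM28 and through it the histone methyltransferase SETDB1, and which is known for the silencing of transposable elements. Genes of KRAB zinc finger proteins arose by repeated duplication and lie in clusters, most of them on chromosome 19, so neighbours are often similar in sequence.

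Summed FPKM was 420661 to 427819 in HR-19011 libraries and 456639 to 467595 in vehicle libraries, and 12122 to 12133 genes reached 1 FPKM in HR-19011 libraries, against 11216 to 11245 in vehicle libraries. All 8 markers fixed for an erythroleukemia line averaged at least 1 FPKM, and their summed level was 1693 to 1789 FPKM in HR-19011 libraries and 4293 to 4366 FPKM in vehicle libraries. The most abundant of the 8 averaged 2331 FPKM over the 6 libraries, so the sum rests mostly on 1 transcript. It does not show that all 8 fell. Of the markers of other cell types, 1 of 3 for T cells, 1 of 3 for epithelium and 1 of 3 for monocytes and macrophages averaged at least 1 FPKM, and none of those for B cells and fibroblasts did, with MS4A1 of B cells and KRT5 of epithelium listed at 0 in every library. The summed level was 11.9 to 12.5 FPKM in HR-19011 libraries and 6.33 to 9.28 FPKM in vehicle libraries for the T cell markers, and 18.7 to 21.3 FPKM in HR-19011 libraries and 31.9 to 33.4 FPKM in vehicle libraries for the epithelial ones. The B cell markers summed to 0.627 to 0.989 FPKM in HR-19011 libraries and 0.262 to 0.509 FPKM in vehicle libraries, and those of monocytes and macrophages to 12.3 to 13.3 FPKM in HR-19011 libraries and 11.4 to 12.2 FPKM in vehicle libraries. The groups overlapped in the sum of the fibroblast markers. The part of these shifts in the results on ZNF genes was not tested. In a bulk sample, fewer cells of a type and less RNA per cell cannot be told apart. The depth behind each value is unknown, since no read counts were given.

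Of the 251 expressed ZNF genes, 146 were higher and 62 were lower in HR-19011 libraries at a limma adjusted p under 0.05, and 43 did not pass the test. Among all 11856 genes tested, 84.4% passed, 46.4% as higher and 38% as lower, against 82.9%, 58.2% and 24.7% of the ZNF genes. The 3 HR-19011 values and the 3 vehicle values did not overlap in 211 ZNF genes (84.1%), beside 85.2% of all tested genes. Most ZNF genes changed by little: 21 of them (8.37%) rose by at least 2-fold on the log2(FPKM + 1) scale and 1 (0.398%) fell by as much, against 12% and 6.45% of all tested genes.

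The median log2 fold change of the ZNF genes was 0.22, beside 0.07 over all tested genes, and their median rank percentile was 58.8, on a scale where 0 is the lowest and 100 the highest log2 fold change of any tested gene. Both values are descriptions, since the genes were selected on their level. The split of calls moved with the way the libraries were scaled to each other. It was 126 higher and 77 lower after TMM scaling, 164 and 50 in TPM, 102 and 94 after quantile normalization, 144 and 64 with totals made equal without globin and mitochondrial transcripts, and 116 and 87 after median centring. TPM shifted the median of all tested genes by 0.12, quantile normalization by -0.13 and median centring by -0.12 on the log2 scale. For that reason a statement on the direction of the family as a whole depends on the scaling, whereas 147 ZNF genes (58.6%, beside 66.5% of all tested genes) kept their call and its direction under all 5 other scalings. These were 97 that rose (38.6%, beside 34.6% of all tested genes) and 50 that fell (19.9%, beside 31.9%). The sign of 67 ZNF genes (26.7%, beside 19.3%) turned under at least 1 scaling.

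**Figure D1:**
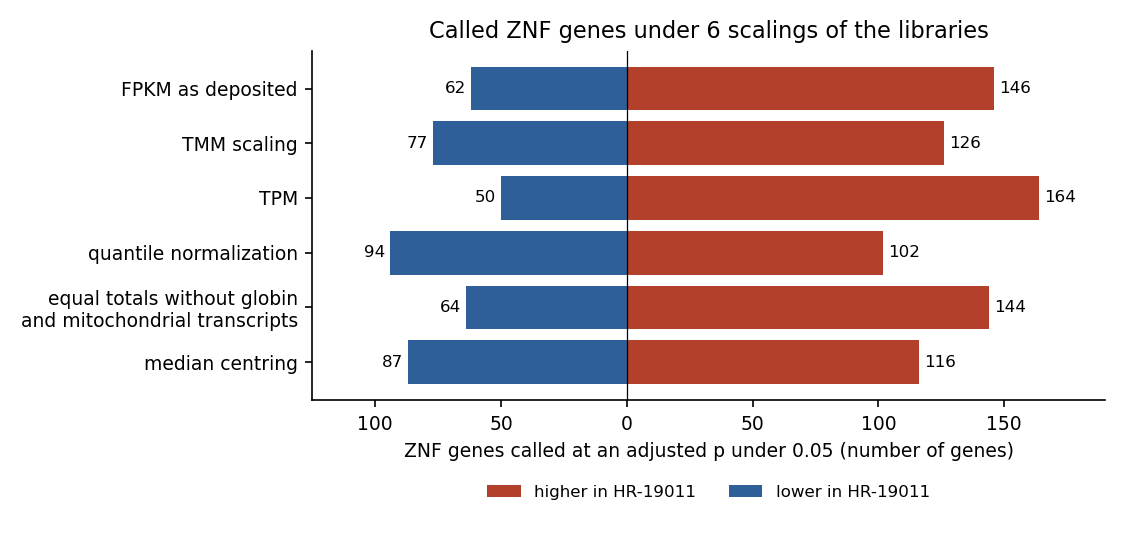
Number of expressed ZNF genes called higher (bars to the right) or lower (bars to the left) in HR-19011 than in vehicle libraries at a limma adjusted p under 0.05, for the FPKM as deposited and for 5 other scalings. Higher calls outnumber lower ones in every row, by 164 to 50 in TPM and by only 102 to 94 after quantile normalization.

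**Figure D2:**
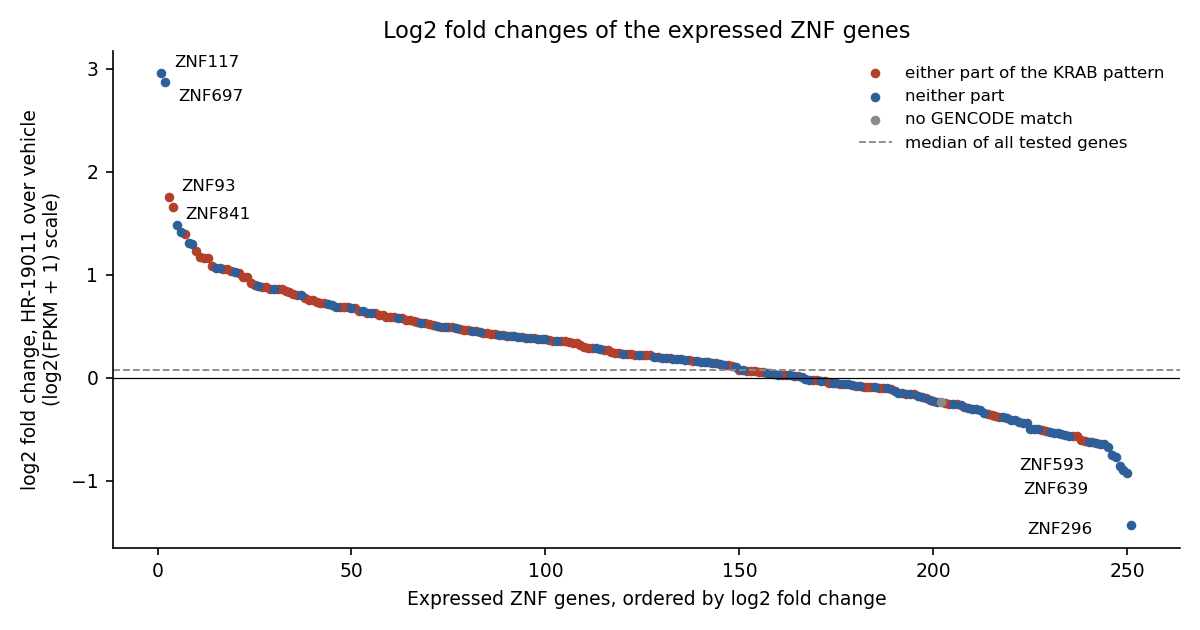
Log2 fold change of each of the 251 expressed ZNF genes, HR-19011 over vehicle on the log2(FPKM + 1) scale, ordered from the highest to the lowest and coloured by a KRAB pattern in the predicted protein. ZNF117 at 2.95 and ZNF697 at 2.86 stand above the rest of the curve, ZNF296 at -1.43 stands below it, and the dashed line marks the median of all tested genes, 0.07.

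The largest rises were those of ZNF117 and ZNF697. ZNF117, at chr7:64971772-64991036 on GRCh38.p14, had 17.2, 16.9 and 18.0 FPKM in HR-19011 libraries, against 1.66, 0.958 and 1.56 FPKM in vehicle libraries. Every HR-19011 library lay far above every vehicle library. The log2 fold change was 2.95 (SE 0.105, limma adjusted p = 1.2e-08), rank 84 from the top among all tested genes. ZNF117 shares exon sequence and strand with ERV3-1, a gene of an endogenous retroviral envelope, which averaged 40.0 ± 1.80 FPKM in HR-19011 libraries and 5.42 ± 0.462 FPKM in vehicle libraries (SD, n = 3 each). The sources used here do not tell how reads of that stretch were divided between ZNF117 and ERV3-1, and the level of ZNF117 alone is uncertain.

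ZNF697, at chr1:119619377-119648266, shares no stretch of 100 bases with another annotated gene and overlaps none. It had 21.0, 20.7 and 22.2 FPKM in HR-19011 libraries, against 2.16, 2.29 and 1.75 FPKM in vehicle libraries. The groups were wide apart, by 10.3-fold in mean FPKM, beside 12.5-fold for ZNF117. Its log2 fold change was 2.86 (SE 0.0678, limma adjusted p = 1.1e-09), rank 95 from the top.

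ZNF93, a KRAB protein known to bind and repress LINE-1 elements, had 10.3, 10.4 and 11 FPKM in HR-19011 libraries and 2.30, 2.52 and 2.48 FPKM in vehicle libraries. The groups did not overlap, and the log2 fold change was 1.75 (SE 0.0476, limma adjusted p = 2.5e-09). ZNF841 averaged 8.80 ± 0.493 FPKM in HR-19011 libraries and 2.11 ± 0.213 FPKM in vehicle libraries (SD, n = 3 each), a log2 fold change of 1.66, and it overlaps its neighbour ZNF432 on the same strand. ZNF446 followed with a log2 fold change of 1.48, at 5.03 ± 0.0425 FPKM in HR-19011 libraries and 1.17 ± 0.220 FPKM in vehicle libraries. The value of ZNF446 is uncertain, because 24.0% of its 100-base stretches also lie in ZNF324 and its exons overlap SLC27A5 on the other strand.

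Next came ZNF76, a transcription factor related to ZNF143, with a log2 fold change of 1.42, ZNF627 with 1.39, ZNF277 with 1.30, ZNF280A with 1.30 and ZNF77 with 1.23. ZNF280A was the most abundant of these, at 26.4 ± 0.3 FPKM in HR-19011 libraries and 10.1 ± 0.340 FPKM in vehicle libraries (SD, n = 3 each). ZNF627 overlaps ACP5, the tartrate-resistant acid phosphatase gene, on the other strand. ACP5 averaged 3.78 ± 0.460 FPKM in HR-19011 libraries and 0.0538 ± 0.0509 FPKM in vehicle libraries, and whether the counting used strand is not stated. All 10 of these genes kept their call and direction under the 5 other scalings.

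At the lower end stood ZNF296, at chr19:45071500-45076478, whose mouse counterpart is studied in pluripotent stem cells. It had 1.96, 1.89 and 1.97 FPKM in HR-19011 libraries, against 6.82, 7.03 and 6.96 FPKM in vehicle libraries. The replicates of each group lay close together and the groups did not overlap. Its exons overlap GEMIN7-AS1 on the same strand. Its log2 fold change was -1.43 (SE 0.0440, limma adjusted p = 5.0e-09), rank 250 from the bottom among all tested genes and the 1 ZNF gene past a 2-fold fall. ZNF639 followed at -0.92, with 5.27 ± 0.161 FPKM in HR-19011 libraries and 10.9 ± 0.510 FPKM in vehicle libraries (SD, n = 3 each).

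ZNF593, the human counterpart of a yeast factor of large ribosomal subunit export, was the most abundant ZNF transcript of vehicle libraries. It had 43.4, 42.9 and 37.2 FPKM in HR-19011 libraries, against 74.4, 79.8 and 77.3 FPKM in vehicle libraries. Its lowest vehicle value was well above its highest HR-19011 value, and the log2 fold change was -0.89 (SE 0.0575, limma adjusted p = 5.8e-07). ZNF512B fell by 0.85 on the log2 scale, ZNF330, a nucleolar protein, by 0.77, ZNF576 by 0.75, ZNF787 by 0.67, ZNF385A, an RNA-binding cofactor of p53, by 0.64, ZNF618 by 0.64 and ZNF207 by 0.64. None of these 10 genes that fell matched either part of the KRAB pattern described further on. Of the 10 that rose most 4 did, beside 136 of all 251 members. All 10 falls kept their call under the 5 other scalings.

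**Figure D3:**
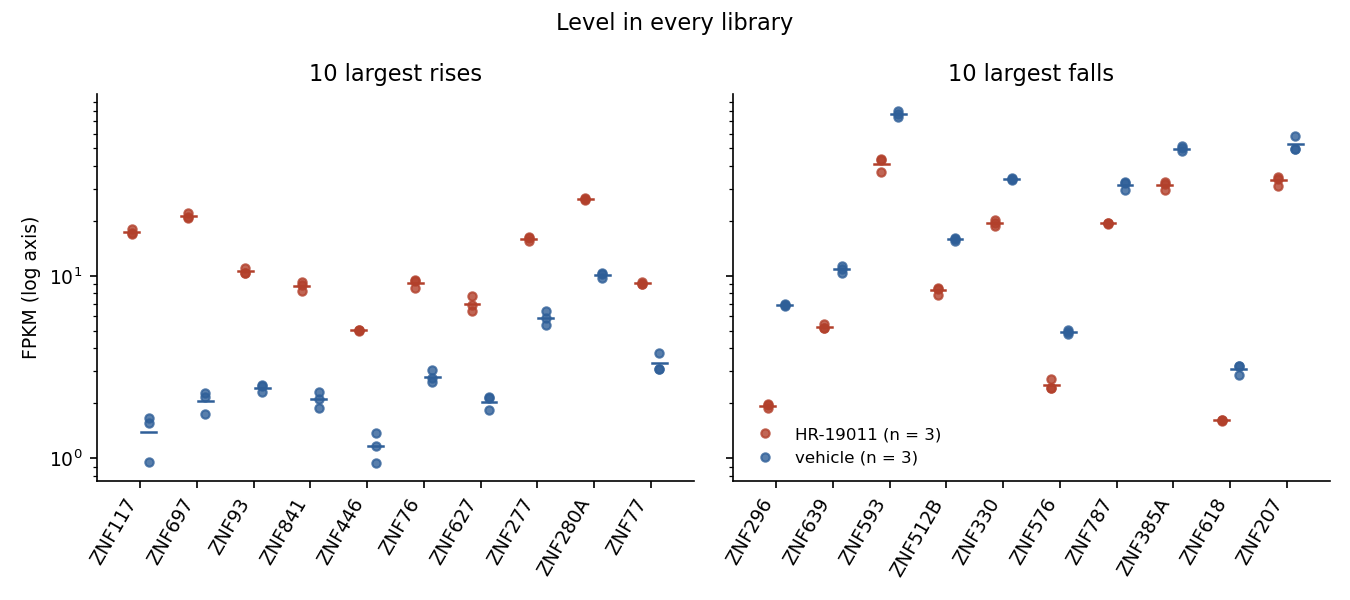
FPKM in every library (log axis) of the 10 ZNF genes with the largest rises and the 10 with the largest falls, with HR-19011 libraries in red left of vehicle libraries in blue, and a short line at each group's mean (n = 3). Of the 10 that rose, 8 average between 1 and 4 FPKM in vehicle libraries, whereas those that fell include ZNF593, ZNF207 and ZNF385A at 49.7 to 77.2 FPKM in vehicle libraries.

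The promoters of 5 genes are given as examples and do not stand for ZNF promoters in general. Those of ZNF697 and ZNF296 are from the ends of the order, leaving out ZNF117, whose exons overlap ERV3-1. Those of ZNF593, ZNF330 and ZNF143, genes that all fell, were chosen for a TGACGTCA octamer, a site of ATF and other bZIP factors. Each is given from RefSeq on GRCh38.p14, 5′ to 3′ on the strand of its gene, as 250 bases before and 50 bases from the start site, with matches to the searched motifs in capitals. The regions are chr1:119648217-119648516 for ZNF697, chr19:45076429-45076728 for ZNF296, chr1:26169658-26169957 for ZNF593, chr4:141220645-141220944 for ZNF330 and chr11:9460762-9461061 for ZNF143, the genes of ZNF697 and ZNF296 lying on the minus strand.
ZNF697: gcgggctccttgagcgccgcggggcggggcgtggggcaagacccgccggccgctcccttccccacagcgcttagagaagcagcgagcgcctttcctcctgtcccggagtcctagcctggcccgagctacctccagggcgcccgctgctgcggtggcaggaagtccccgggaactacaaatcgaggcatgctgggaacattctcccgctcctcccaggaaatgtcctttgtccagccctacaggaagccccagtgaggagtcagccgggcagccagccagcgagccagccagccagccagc
ZNF296: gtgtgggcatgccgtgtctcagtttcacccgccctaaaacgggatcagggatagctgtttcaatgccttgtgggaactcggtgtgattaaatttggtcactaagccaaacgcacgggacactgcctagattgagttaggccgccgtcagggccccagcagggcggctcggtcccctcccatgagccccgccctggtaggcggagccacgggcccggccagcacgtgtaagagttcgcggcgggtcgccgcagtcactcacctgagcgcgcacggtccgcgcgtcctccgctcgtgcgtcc
ZNF593: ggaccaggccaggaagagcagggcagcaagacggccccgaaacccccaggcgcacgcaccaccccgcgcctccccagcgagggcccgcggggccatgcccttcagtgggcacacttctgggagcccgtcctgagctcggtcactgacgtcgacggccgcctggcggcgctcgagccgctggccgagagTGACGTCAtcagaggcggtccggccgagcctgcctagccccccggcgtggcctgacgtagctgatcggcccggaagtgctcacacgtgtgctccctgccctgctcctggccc
ZNF330: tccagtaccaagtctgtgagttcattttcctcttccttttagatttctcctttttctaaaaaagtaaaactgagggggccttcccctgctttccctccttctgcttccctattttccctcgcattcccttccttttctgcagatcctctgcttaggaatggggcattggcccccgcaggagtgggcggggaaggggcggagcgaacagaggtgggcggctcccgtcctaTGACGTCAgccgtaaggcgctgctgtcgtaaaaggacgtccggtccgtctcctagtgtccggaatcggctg
ZNF143: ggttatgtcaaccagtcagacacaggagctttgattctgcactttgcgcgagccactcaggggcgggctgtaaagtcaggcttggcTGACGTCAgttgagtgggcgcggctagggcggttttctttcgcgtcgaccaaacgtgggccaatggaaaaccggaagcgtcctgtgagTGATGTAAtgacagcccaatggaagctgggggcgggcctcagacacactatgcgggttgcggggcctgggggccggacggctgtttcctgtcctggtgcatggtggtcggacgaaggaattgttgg

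The octamer began at -62 in the ZNF593 promoter, at -21 in that of ZNF330 and at -164 in that of ZNF143, counted from the start site as +1. The ZNF143 promoter also held TGATGNAA, the core of the C/EBP-ATF response element, at -76, and the 2 matches do not overlap. The motifs were searched on both strands of 216 ZNF promoters that the table holds. TGACGTCA, which reads the same on both strands, lay in 11 of them (5.09%), beside 1.98% of all 27305 promoters. Those 27305 were not limited to expressed genes, whereas the ZNF promoters are of expressed genes only. TGATGNAA lay in 2 (0.926%, beside 3.67% of all), CCACGTG, an E-box, in 7 (3.24%, beside 4.36%) and TGACGCAA in 0 (beside 0.560%). Of the 11 genes with TGACGTCA, 6 fell, namely ZNF593, ZNF330, ZNF121, ZNF511, ZNF143 and ZNF335, and 3 rose, namely ZNF266, ZNF426 and ZNF561. Of all tested genes 38% fell and 46.4% rose, and of the expressed ZNF genes 24.7% fell and 58.2% rose. With 11 genes, the link of motif and direction was not tested. A match gives letters only and says nothing on binding in these cells. Of these 11 genes, 5 lie on chromosome 19.

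Among RNA-binding, ribosomal and cell division proteins, a list of 9 genes fixed by name, all were measured, 5 rose, 3 fell and 1 did not pass the test. Among all tested genes 46.4% rose and 38% fell. The 3 genes of the list that fell were ZNF593, ZNF207 and ZNF598. ZNF207, also called BuGZ, loads BUB3 onto kinetochores, and had 31.0, 35.0 and 34.0 FPKM in HR-19011 libraries, against 58.6, 49.3 and 49.7 FPKM in vehicle libraries. The groups did not overlap, and 1 vehicle library stood above the other 2. ZNF598, the ubiquitin ligase that marks collided ribosomes, averaged 33.7 ± 0.377 FPKM in HR-19011 libraries and 45.9 ± 1.91 FPKM in vehicle libraries (SD, n = 3 each), a log2 fold change of -0.44 (limma adjusted p = 3.0e-06).

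The risers of this list moved by less. ZNF638, an RNA-binding protein that takes part in silencing of retroviral DNA, rose by a log2 fold change of 0.42 (SE 0.0421), at 17.0 ± 0.437 FPKM in HR-19011 libraries and 12.5 ± 0.587 FPKM in vehicle libraries (SD, n = 3 each), and kept that call under all scalings. ZNF622, the human counterpart of another yeast ribosome assembly factor, had a log2 fold change of 0.18, ZNF346, a binder of double-stranded RNA, 0.20, ZNF326, a subunit of a complex that links transcription to splicing, 0.16, and ZNF830, found with spliceosomes, 0.23. None of these 4 calls held under all 5 other scalings. ZNF106 stood at 15.8 ± 0.38 FPKM in HR-19011 libraries and 15.3 ± 0.720 FPKM in vehicle libraries (limma adjusted p = 0.34).

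Of 20 transcription factors and cofactors fixed by name, 17 were expressed, while ZNF703, ZNF350 and ZNF532 were under the limit of 2 FPKM. In this list 10 rose, 4 fell and 3, ZNF148, ZNF746 and ZNF24, did not pass the test. Over all tested genes, 46.4% rose and 38% fell. Of the 10 rises, 4 held under all 5 other scalings, those of ZNF76, ZNF687, ZNF217 and ZNF384. Beside ZNF76, the largest rises were those of ZNF687, a subunit of a complex with ZMYND8, at 11.9 ± 0.361 FPKM in HR-19011 libraries and 7.01 ± 0.366 FPKM in vehicle libraries, and of ZNF217, a partner of the CoREST co-repressor, at 12.6 ± 0.220 FPKM in HR-19011 libraries and 7.52 ± 0.579 FPKM in vehicle libraries (SD, n = 3 each). Their log2 fold changes were 0.69 and 0.68. ZNF384 rose by 0.37. ZNF143, an activator of small nuclear RNA and many other promoters, had 4.29, 4.99 and 4.33 FPKM in HR-19011 libraries, against 5.91, 5.18 and 5.86 FPKM in vehicle libraries. Its groups came close without overlapping, and the log2 fold change was -0.26 (SE 0.0668, limma adjusted p = 0.0050). ZNF281 at -0.29, ZNF263 at -0.30 and ZNF335 at -0.23 were the others that fell, and the call of ZNF335 did not hold under all scalings.

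Of 8 genes fixed by name as a list on binding to transposons, imprinted loci or ZNF genes, 6 were expressed, and ZNF91 and ZNF10 were not. Here 5 rose and 1 fell, with every call unchanged under the 5 other scalings. Over all tested genes, 46.4% rose and 38% fell. ZNF274, which brings SETDB1 to the 3′ ends of ZNF genes, had 18.8, 18.3 and 18.1 FPKM in HR-19011 libraries, against 8.32, 8.07 and 8.59 FPKM in vehicle libraries. The groups were wide apart, at a log2 fold change of 1.06 (SE 0.0374, limma adjusted p = 1.2e-08). ZNF417 and ZNF587, neighbours known to repress endogenous retroviruses, had log2 fold changes of 1.02 and 0.45, but 25.9% and 11.4% of their 100-base stretches also lie in other genes, each other included, so the division of reads between them is uncertain. ZNF445, a regulator of imprinted loci, rose by 0.41. ZNF202 is on the list though described as a repressor of lipid metabolism genes. It had 4.01, 3.75 and 3.48 FPKM in HR-19011 libraries, against 5.14, 4.96 and 5.31 FPKM in vehicle libraries. Its log2 fold change was -0.37 (SE 0.0543, limma adjusted p = 0.00017). It was the 1 gene of this list that was lower in every HR-19011 library.

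The order of the most abundant ZNF transcripts differed between the groups. In HR-19011 libraries ZNF655, which matches the KRAB pattern described further on, came first at 49.6 ± 1.68 FPKM, against 34.9 ± 1.26 FPKM and rank 7 in vehicle libraries (SD, n = 3 each). ZNF593 came second in HR-19011 libraries, at 41.1 ± 3.45 FPKM, and first in vehicle libraries, at 77.2 ± 2.70 FPKM. ZNF146, rank 3 in both groups, fell by 0.50 on the log2 scale, at 36.2 ± 0.367 FPKM in HR-19011 libraries and 51.7 ± 1.9 FPKM in vehicle libraries. ZNF655 rose by 0.49 (SE 0.0377, limma adjusted p = 1.9e-06). The highest mean was thus lower in HR-19011 libraries, while the median ZNF gene averaged 5.43 FPKM in HR-19011 libraries and 4.51 FPKM in vehicle libraries.

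Genes that matched a KRAB pattern were mostly on the rising side. A search for a pattern of the KRAB box in translated GENCODE transcripts found either of its 2 parts in 136 members and neither in 114, and 1 member, ZNF788P, had no translated transcript to search. A gene with neither part may still encode a KRAB box, which was not checked, so the classes are those of the pattern only. With the pattern, 93 rose and 18 fell, at a median log2 fold change of 0.36 and a median rank percentile of 66.5. Without it, 53 rose and 43 fell, at a median log2 fold change of 0.03 and a percentile of 47.9, near the 50 of all tested genes. The limit of 2 FPKM bears on these counts, since 23 genes with the pattern and 5 without it entered through their HR-19011 mean alone and all of them rose. Over members with both group means at 2 FPKM or more, 70 of 113 with the pattern rose and 18 fell, at a median log2 fold change of 0.25, and 48 of 107 without it rose and 41 fell, at 0.02. This restriction was chosen after the data were seen, and after quantile normalization its medians were -0.02 with the pattern and -0.06 without it. With both parts required, 91 members had the pattern, of which 61 rose and 14 fell, at a median of 0.36, and of the other 159 members 85 rose and 47 fell, at 0.16. Calls that held under all 5 other scalings were 65 higher and 15 lower with either part, against 32 and 34 with neither. The difference between these classes was not tested. Over all members, the median log2 fold change after quantile normalization was 0.13 with either part and -0.04 with neither.

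Summed over the 136 genes with either part, the level was 807 to 827 FPKM in HR-19011 libraries and 636 to 645 FPKM in vehicle libraries. Over the 114 with neither it was 1217 to 1244 FPKM in HR-19011 libraries and 1282 to 1302 FPKM in vehicle libraries. The groups did not overlap in either sum. The direction of the second class turned with the scaling: as a share of each library's summed FPKM, the genes with neither part took 0.289% to 0.291% in HR-19011 libraries and 0.278% to 0.284% in vehicle libraries. Those with either part took 0.192% to 0.196% in HR-19011 libraries and 0.138% to 0.139% in vehicle libraries, higher in HR-19011 on both scales. At the upper end of the genes that matched the whole KRAB pattern stood ZNF93, ZNF841 and ZNF627. At the lower end stood ZNF584, at 4.94 ± 0.362 FPKM in HR-19011 libraries and 8.17 ± 0.635 FPKM in vehicle libraries (SD, n = 3 each), with a log2 fold change of -0.63. Before it came ZNF589, at 5.46 ± 0.340 FPKM in HR-19011 libraries and 8.90 ± 0.344 FPKM in vehicle libraries, and ZNF485, at 2.13 ± 0.131 FPKM in HR-19011 libraries and 3.65 ± 0.205 FPKM in vehicle libraries. Their log2 fold changes were -0.62 and -0.57.

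Level moves with the KRAB pattern and with the change, and its part in the difference was not tested. The median level of genes with either part of the pattern was 4.43 FPKM in HR-19011 libraries and 3.31 FPKM in vehicle libraries, and that of genes with neither was 7.86 FPKM in HR-19011 libraries and 6.94 FPKM in vehicle libraries. Across the 251 ZNF genes, the log2 fold change correlated with the log2 mean level at r = -0.29 (rho = -0.33), and across all tested genes at r = -0.19. These are correlations across genes that share 6 libraries, and genes are not independent replicates. Of the 92 ZNF genes at 2 to 4 FPKM, 67 rose and 9 fell, at a median percentile of 68.4, beside 62.0 for all tested genes of that level. Of the 27 at 16 FPKM and above, 6 rose and 17 fell, at 35.5, beside 35.9 for all tested genes of that level. Within 2 to 4 FPKM, the 70 genes with either part of the pattern had a median percentile of 71.6 and the 21 with neither 67.4. Within 4 to 8 FPKM, the 47 genes with either part of the pattern had a median percentile of 62.9 and the 40 with neither 50.8, beside 54.7 for all tested genes. Within 8 to 16 FPKM the values were 63.95 for 14 genes and 50.1 for 31, beside 48.7. At 16 FPKM and above they were 39.8 for 5 genes and 34.4 for 22.

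**Figure D4:**
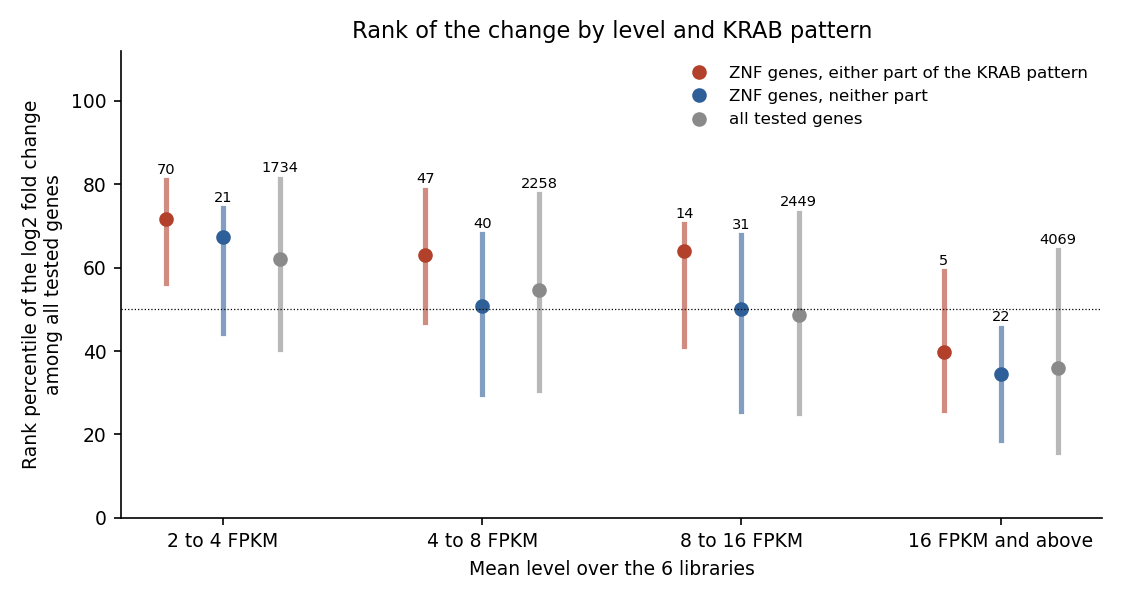
Rank percentile of the log2 fold change among all 11856 tested genes, by mean level over the 6 libraries, for ZNF genes with either part of the KRAB pattern (red), ZNF genes with neither (blue) and all tested genes (grey). Points are medians, bars run from the lower to the upper quartile, numbers are genes, and the medians of all tested genes go from 62.0 at 2 to 4 FPKM to 35.9 at 16 FPKM and above.

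The number of C2H2 finger patterns in the longest match moved with the change as well. Members with 15 or more patterns numbered 48, of which 37 rose and 5 fell, at a median log2 fold change of 0.49. Those with 10 to 14 numbered 75, of which 44 rose and 18 fell, at 0.23, and those with 5 to 9 numbered 82, of which 45 rose and 20 fell, at 0.19. With 0 to 4 patterns, 20 of 45 rose and 18 fell, at 0.03. Among all tested genes 46.4% rose and 38% fell. Genes that entered through their HR-19011 mean alone, such as ZNF226 and ZNF432, are part of these counts. After quantile normalization the medians were 0.26 with 15 or more patterns, 0.02 with 10 to 14, -0.02 with 5 to 9 and -0.04 with 0 to 4. Across 250 members, the log2 fold change correlated with the number of patterns at r = 0.21 (rho = 0.25). With 15 or more patterns the median level was 5.00 FPKM in HR-19011 libraries and 3.31 FPKM in vehicle libraries. In the same order of groups, it was 4.62 and 3.39 FPKM with 10 to 14 patterns, 5.48 and 4.91 FPKM with 5 to 9, and 9.33 and 8.90 FPKM with 0 to 4.

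Chromosome 19 held 96 of the expressed ZNF genes, of which 58 rose and 18 fell, at a median log2 fold change of 0.32. On the other chromosomes 88 of 155 rose and 44 fell, at 0.18. After quantile normalization these medians were 0.02 and 0.01, and 43 of the 58 rises on chromosome 19 held under all 5 other scalings, as did 54 of the 88 elsewhere. Within chromosome 19, the 73 genes with either part of the KRAB pattern had a median of 0.46 with 52 risers and 6 that fell, and the 22 with neither had a median of -0.14 with 6 risers and 11 that fell. The chromosome alone did not order the genes: 63 genes with the pattern elsewhere had a median of 0.29 and 92 without it 0.13. Genes that entered through their HR-19011 mean alone are part of these counts and medians, which were not repeated without them. Among all tested genes 46.4% rose and 38% fell.

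Runs of neighbouring ZNF genes, whose starts lie within 500 kb of the next, differed among themselves. In the run at chr19:19668153-24129968, which holds ZNF93, 15 of 38 ZNF genes were expressed, 13 rose and 0 fell at the threshold, with a lowest log2 fold change of -0.10. In the run at chr19:51571283-53580269, which holds ZNF841, 20 of 39 were expressed, 13 rose and 1 fell. Under all 5 other scalings 7 of the 13 rises held in the first of these runs and 8 of the 13 in the second, and after quantile normalization their median log2 fold changes were -0.0077 and -0.02. In the run at chr19:11483429-12633834, which holds ZNF627, 7 of 8 expressed genes rose and 1 fell. Both runs near the end of the long arm were mixed. At chr19:55476617-56671757, where none of the 9 expressed genes has the KRAB pattern, 3 rose and 3 fell, among them ZNF787. At chr19:57191500-58489533, 5 of 13 expressed genes rose, ZNF446, ZNF274 and ZNF417 among them, and 3 fell, ZNF584 among them. Genes of a run share sequence, so they are not independent of each other. The rises in several runs also include genes that entered through their HR-19011 mean alone, such as ZNF432, ZNF446 and ZNF417. Over all members, 27 had at least 10% of their 100-base stretches in another gene and 164 had none. Without those 27, 131 rose and 59 fell, at a median log2 fold change of 0.22.

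**Figure D5:**
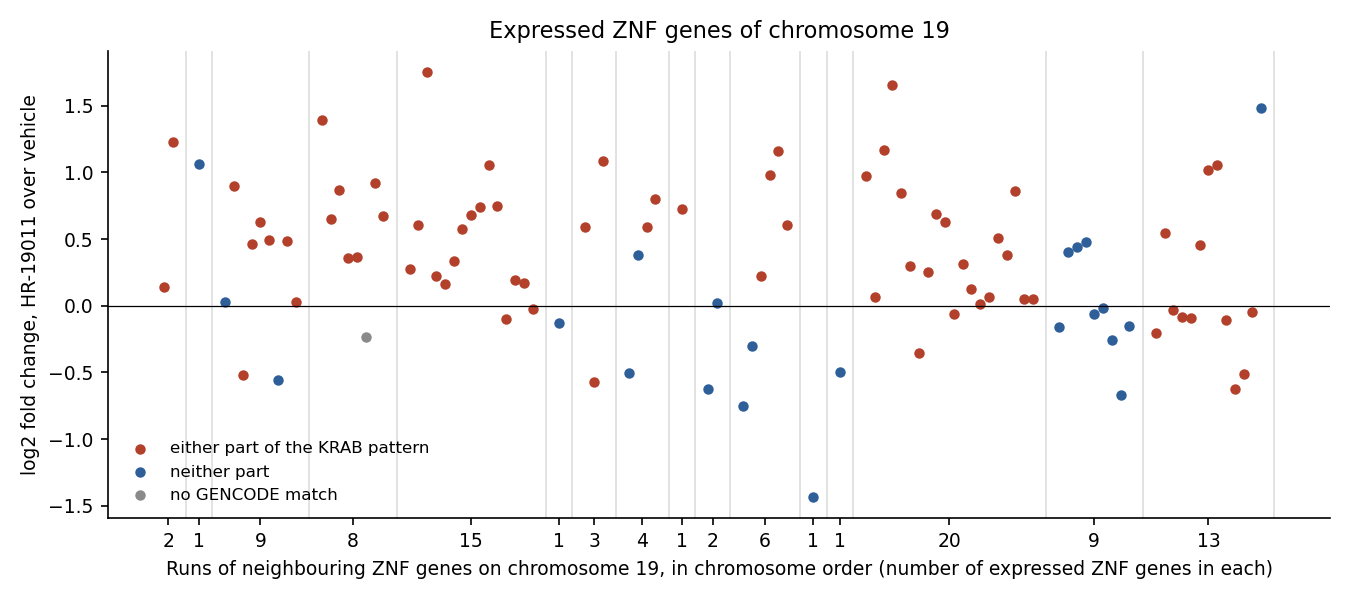
Log2 fold change (HR-19011 over vehicle) of the 96 expressed ZNF genes of chromosome 19 in chromosome order, set apart by run of neighbouring ZNF genes, with the number of expressed ZNF genes in each run under the axis. Genes with either part of the KRAB pattern (red) lie mostly above 0, the run of 15 has no gene below -0.10, and ZNF296 stands alone at -1.43.

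The co-repressor genes through which KRAB proteins work were lower more often than higher. Of 20 genes fixed by name, all were measured, 3 were higher, 13 were lower and 4 did not pass the test, at a median log2 fold change of -0.21. Among all tested genes 46.4% were higher and 38% lower, at a median of 0.07. The list had a median of 13.8 FPKM in HR-19011 libraries and 17.1 FPKM in vehicle libraries. Its genes lie in several classes of level, from DNMT3A, at 1.42 FPKM in HR-19011 and 1.56 FPKM in vehicle libraries, up to TRIM28. Of all 4069 tested genes at 16 FPKM and above, 1455 were higher and 2207 lower, at a median of -0.17. Of the 2449 at 8 to 16 FPKM, 1115 were higher and 963 lower, at a median of 0.05. The part of level in the list's direction was not tested. TRIM28 had 139, 139 and 137 FPKM in HR-19011 libraries, against 241, 250 and 248 FPKM in vehicle libraries. No HR-19011 value came near a vehicle value, and the log2 fold change was -0.83 (SE 0.0236, limma adjusted p = 3.3e-09). PPHLN1, a subunit of the HUSH silencing complex, fell by 0.83 on the log2 scale, the DNA methyltransferase DNMT1 by 0.71, the heterochromatin protein CBX3 by 0.56, the deacetylases HDAC2 by 0.53 and HDAC1 by 0.39, MORC2 by 0.51 and CHD4 by 0.25. The 3 that rose were CBX5, which encodes heterochromatin protein HP1 alpha, at 0.71, SETDB1 at 0.40 and MPHOSPH8, another HUSH subunit, at 0.29. SETDB1 averaged 14.8 ± 0.661 FPKM in HR-19011 libraries and 11 ± 0.118 FPKM in vehicle libraries (SD, n = 3 each). All 3 rises and 10 of the 13 falls, TRIM28 included, held under the 5 other scalings. The remaining 3 falls, of DAXX, ATRX and DNMT3B, did not.

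The 261 ZNF genes under the limit of 2 FPKM complete the family. Of these, 78 averaged at least 1 FPKM and were tested, and 53 rose, 5 fell and 20 did not pass, at a median log2 fold change of 0.36. After quantile normalization that median was -0.03, so its sign rests on the scaling. Among all tested genes 46.4% rose and 38% fell, and of the 1734 at 2 to 4 FPKM, 1008 rose and 355 fell. The other 183 of the 261 ZNF genes were under 1 FPKM and untested, 18 of them listed at 0 in all 6 libraries. Counted per library, 344 to 349 ZNF genes reached 1 FPKM in HR-19011 libraries and 290 to 300 in vehicle libraries. The direction in which genes pass a limit follows from the same values, so these counts are descriptions. Just outside the limit, ZNF846 averaged 3.11 ± 0.134 FPKM in HR-19011 libraries and 0.874 ± 0.0513 FPKM in vehicle libraries (SD, n = 3 each), and ZNF8 averaged 1.83 ± 0.117 FPKM in HR-19011 libraries and 2.15 ± 0.0691 FPKM in vehicle libraries.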

How the data were processed

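The 6 files hold FPKM per gene for 46427 genes, a unit the authors scaled to transcript length and library size, per the file headers. Libraries were stranded and from polyadenylated RNA, per the labels' protocols. Tools listed in the submitters' processing notes, without roles, are StringTie 2.1.3b, SAMtools 1.9, HISAT2 2.1.0, HISAT, Trimmomatic 0.38, Bowtie2 and DESeq2 1.24.0, with GRCh38 as the build. Neither the handling of reads shared by several genes nor the use of strand in counting is stated. FPKM are not counts, so no count model was used and depth is unknown.

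The test ran on log2(FPKM + 1) for the 11856 genes that averaged 1 FPKM or more, with limma 3.58.1 (R 4.3.3), HR-19011 against vehicle, two-sided, with a mean-variance trend and Benjamini-Hochberg adjustment over all of them, at 0.05. This scale understates changes of low genes. Groups came from sample titles. The members and lists were chosen with earlier results of these data known. Named genes are the 10 highest and 10 lowest called members without overlap, the 5 most abundant and members of the role lists. Also named are 3 on either side of the limit of 2 FPKM and the extremes of the genes with the whole KRAB pattern. The other genes named, such as those of a motif, the overlapping neighbours, and those of the closing observations, were chosen after their values were seen.

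KRAB and C2H2 patterns were searched in the open reading frames of GENCODE 29 protein-coding transcripts, since no protein table was used. Counting either of the 2 parts of the KRAB pattern was added after the whole pattern was seen to miss known KRAB genes. The whole pattern needs both parts within 60 residues. Gene positions came from RefSeq on GRCh38.p14 by NCBI gene identifier for all 251 members. The 5 other scalings were median centring, quantile normalization, TPM, TMM (30% trimmed by log ratio, 5% by mean log) and totals made equal after removal of globin and mitochondrial transcripts. In simulated data with 11856 genes and 3 against 3 libraries, the test recovered 86% of 50 genes changed 1.25-fold, 88% at 1.5-fold and 100% at 2-fold and 4-fold, and called 8 of 11656 unchanged genes. Few genes changed in the simulation, noise was independent between genes and libraries were not shifted against each other. In the measured data 84.4% of tested genes passed, so these rates do not carry over to the calls here. Within a group, libraries shared at most 0.0244% of their values, so none was a duplicate.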

Additional observations from a re-analysis of the deposited data

How the results depend on the processing

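The median log2 fold change of the ZNF genes, 0.22 as deposited, was 0.26 with a pseudocount of 0.1, 0.13 with a pseudocount of 5, 0.14 after TMM scaling, 0.36 in TPM, 0.0132 after quantile normalization, 0.20 with equal totals without globin and mitochondrial transcripts and 0.10 after median centring. It was 0.25 with a limit of 1 FPKM, 0.0712 with a limit of 5 FPKM, which also holds for a fit on genes of at least 5 FPKM, and 0.17 over the 221 members at 2 FPKM or more in both groups. Leaving out each library gave 0.201 to 0.213. The median rank percentile, 58.8, was 73.6 with no filter, 56.7 in the fit at 5 FPKM, 54.9 after quantile normalization, 60.7 with a limit of 1 FPKM, 50.1 with a limit of 5 FPKM, 55.7 at 2 FPKM or more in both groups and 57.8 to 58.4 without each library. Rises numbered 60 with a limit of 5 FPKM, also in the fit at 5 FPKM, and 40 in a test against 1.5-fold, and falls numbered 94 after quantile normalization and 6 against 1.5-fold. Against 1.5-fold, 1 TRIM28 pathway gene was higher and 3 were lower.

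Under quantile normalization the log2 fold changes of ZNF326 (-0.029), ZNF644 (-0.041), ZNF592 (-0.0033), ZNF395 (-0.041), ZNF746 (-0.039), ZNF766 (-0.060) and ZNF304 (-0.050) turned their sign, after median centring those of ZNF592 (-0.019), ZNF24 (-0.096), ZNF746 (-0.092) and ZNF106 (-0.076), after TMM scaling those of ZNF24 (-0.063), ZNF746 (-0.057) and ZNF106 (-0.042) and in TPM that of ZNF148 (0.076). With 1 library left out at a time, ZNF148 ranged from -0.051 to 0.032 and was above 0 without vehicle replicate 1, and ZNF24 ranged from -0.016 to 0.055 and was below 0 without vehicle replicate 2. ZNF24, ZNF106, ZNF148 and ZNF746 were not called as deposited. The cause was not tested. Over the 58 named genes and all settings, 1047 values kept side and sign, 74 lost the call, 5 gained it and 17 turned.

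Libraries with the same replicate number did not deviate together (correlations of -0.03, -0.0045 and -0.11). With 3 libraries in each group, this cannot show whether the numbers mark pairs. With the replicate number as a block, 144 ZNF genes rose and 62 fell, and 3 TRIM28 pathway genes were higher and 11 lower. The unknown depth limits low genes most.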

Other observations

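Other families of C2H2 zinc finger genes were described for these libraries with the same test, chosen by symbol, at 2 FPKM and above. Of 26 ZBTB genes, whose proteins pair zinc fingers with a BTB domain, 14 rose and 7 fell at a limma adjusted p under 0.05, at a median log2 fold change of 0.18. Of 23 ZSCAN, ZKSCAN and ZFP genes, 15 rose and 5 fell, at a median of 0.30. Among all tested genes 46.4% rose and 38% fell. After quantile normalization the median was -0.05 for the ZBTB genes and -0.01 for the other set, so the sign of both rests on the scaling. The largest rise in either set was that of ZBTB38, which encodes a protein that binds methylated DNA. ZBTB38 had 13.2, 13.5 and 13.8 FPKM in HR-19011 libraries, against 3.84, 3.57 and 3.91 FPKM in vehicle libraries, a log2 fold change of 1.60 (SE 0.0437). ZFP69B followed at 6.64 ± 0.354 FPKM in HR-19011 libraries and 2.1 ± 0.231 FPKM in vehicle libraries (SD, n = 3 each). No test of a difference between the families was made.

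Pseudogenes and antisense genes named after ZNF genes were measured too. Of 12 pseudogenes at 1 FPKM and above, 8 rose and 1 fell, with ZNF731P the most abundant of those that rose, at 28.4 ± 1.43 FPKM in HR-19011 libraries and 12.1 ± 1.37 FPKM in vehicle libraries. Of 7 antisense genes, 2 rose and 3 fell. For both sets, the shares over all tested genes were 46.4% that rose and 38% that fell. ZNF232-AS1 had 5.46, 5.94 and 5.27 FPKM in HR-19011 libraries, against 19.2, 17.1 and 19.6 FPKM in vehicle libraries. This fall of 1.58 on the log2 scale was larger than that of any expressed protein-coding ZNF gene, and ZNF232 itself fell by 0.53. Reads of a gene and of its antisense partner can be told apart only if the counting used strand, which is not stated. Among ZNF genes at 1 to 2 FPKM, ZNF862 had 2.92 ± 0.301 FPKM in HR-19011 libraries and 0.250 ± 0.0392 FPKM in vehicle libraries, and ZNF331 had 2.21 ± 0.114 FPKM in HR-19011 libraries and 0.147 ± 0.0487 FPKM in vehicle libraries. Both lay within the lowest levels tested, where the depth behind a value is unknown.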
